A study of Homo sapiens with 12 samples.

Results

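The genes described here encode 9 transcription factors that direct lineages other than the liver: CDX2 and PDX1 of the gut and pancreas, PAX6, SOX2 and OLIG2 of the nervous system, GATA1 and SPI1 of the blood, and MYOD1 and TBX5 of skeletal muscle and heart. The regions studied were all ChIP-seq peaks with at least 1 base within 20 kb of the annotated start of each gene, 73 peaks of the 273822 in 3 deposited lists. They comprised 10 H3K27ac, 52 H3K4me1 and 11 H3K4me3 peaks. All came from untreated HepG2, an established human cell line that was grown from a liver cancer. The series has 12 libraries in 4 groups of 3, with antibodies to H3K27ac, H3K4me1 and H3K4me3 and a control titled input but labelled with an anti-mouse immunoglobulin. In ChIP-seq an antibody pulls down chromatin that carries a given modification, and the DNA in it is sequenced. Each mark had 1 list that pooled its replicates, so neither the spread between replicates nor the depth is known and no difference was tested. Values of the control libraries were not analysed here. The design text gives the ranking of possibly causal variants as the purpose of the marks. Positions are in GRCh37 unless another build is named. Gene starts are those of MYOD1 (chr11:17741110, plus strand), PAX6 (chr11:31839509, minus), SOX2 (chr3:181429712, plus), GATA1 (chrX:48644982, plus), SPI1 (chr11:47400127, minus), OLIG2 (chr21:34398216, plus), TBX5 (chr12:114846247, minus), CDX2 (chr13:28543505, minus) and PDX1 (chr13:28494168, plus).

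H3K4me3 is a methylation found mainly at gene starts, H3K27ac an acetylation of active promoters and enhancers, and H3K4me1 a methylation of enhancers and of promoter flanks. Master regulators of a lineage are usually silent in other cell types. In many cell types the starts of silent developmental regulators lie in CpG-rich DNA held by Polycomb complexes and can carry some H3K4me3 beside H3K27me3, a mark not measured in this series. H3K4me3 without H3K27ac at such a start is therefore a known configuration, but RNA was not measured here either, so the activity of the genes is not known from these data.

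None of the 9 starts lay inside an H3K27ac peak, and 1 start, that of PAX6, had one within 1 kb. H3K27ac was found within 20 kb of 4 of the 9 starts (PAX6, CDX2, GATA1 and SPI1), H3K4me3 within 20 kb of 7 (all but OLIG2 and TBX5), and H3K4me1 within 20 kb of all 9. Among peaks whose −log10 q-value reached 5, the H3K4me1 count was 8, without OLIG2, and the H3K4me3 count was 6, without SPI1. Genome shares were computed from the full lists only, without that minimum. Of 75849 adjoining windows of 40 kb that tile chromosomes 1 to 22 and X, 29.1% held an H3K27ac peak, 21.9% an H3K4me3 peak and 49.8% an H3K4me1 peak. Those windows include gene-poor DNA and assembly gaps, which were not removed and which lower every genome share given here. Each of the 9 windows, in contrast, holds a gene by choice, so the 2 kinds of window differ in more than the genes named. The share of bases inside a peak, against which a start inside a peak can be read, was 3.04% for H3K27ac, 1.49% for H3K4me3 and 6.47% for H3K4me1. H3K4me3 peaks contained 2 of the 9 starts (PAX6 and PDX1), and H3K4me1 peaks also contained 2 (GATA1 and CDX2).

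**Figure D1:**
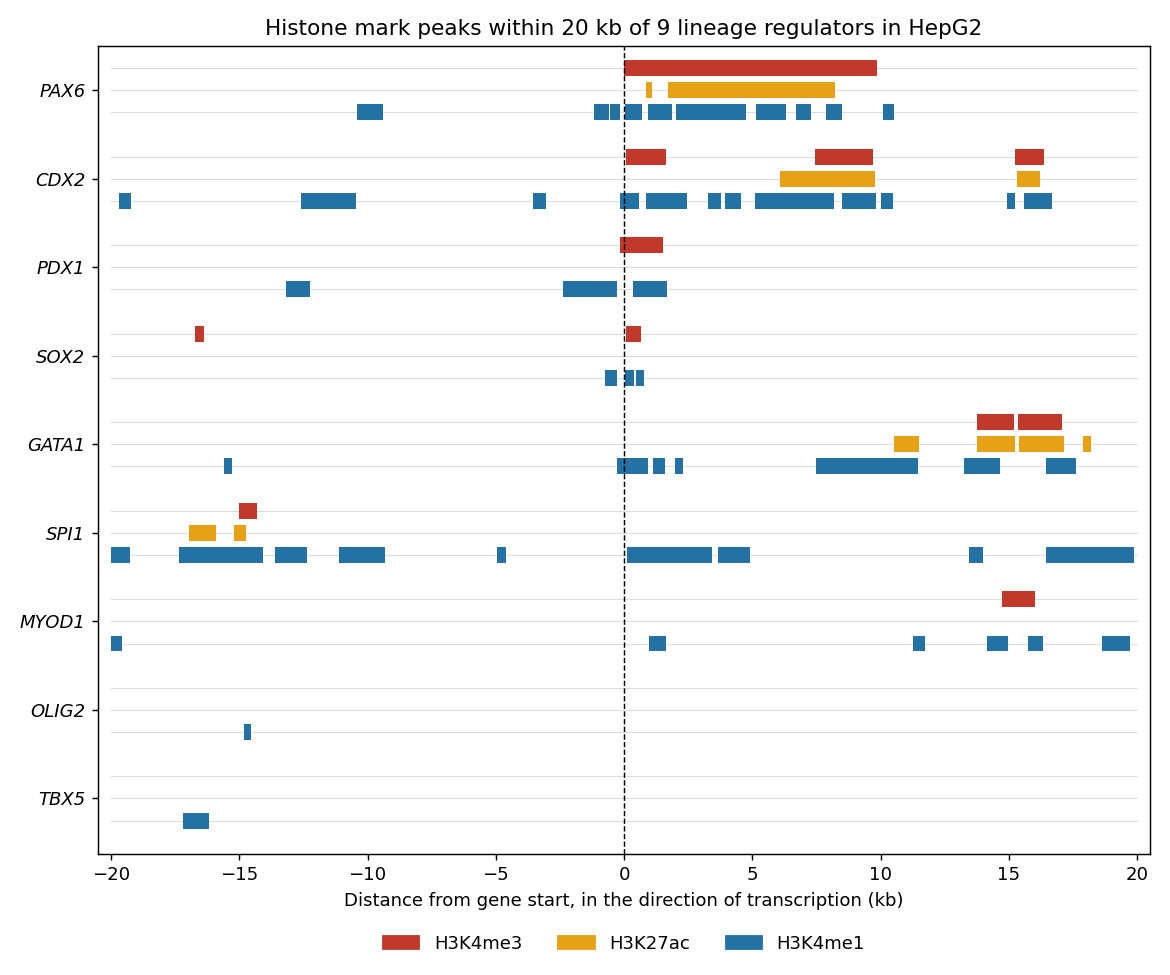
Peaks of H3K4me3 (red), H3K27ac (orange) and H3K4me1 (blue) within 20 kb of the 9 gene starts, drawn to scale along the direction of transcription (x axis, kb; peaks that cross the limit are cut off at it). H3K4me3 contains the starts of PAX6 and PDX1 and begins 91 bp downstream of that of CDX2 and 58 bp downstream of that of SOX2. OLIG2 and TBX5 have 1 H3K4me1 peak each and nothing else.

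The 9 windows fell into 3 kinds by mark. All 3 marks were present at 4 genes (CDX2, GATA1, PAX6 and SPI1), compared with 18.0% of genome windows. H3K4me1 and H3K4me3 without H3K27ac were present at 3 genes (MYOD1, PDX1 and SOX2), compared with 3.20%. H3K4me1 was the sole mark at 2 genes (OLIG2 and TBX5), compared with 18.0%. A window-level class says little about the gene itself, because at GATA1, SPI1 and MYOD1 the H3K4me3 peaks lay at least 13.8 kb from the start.

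H3K4me3 came within 1 kb of 4 starts, and at those 4 the nearest base of the peak was at most 91 bp away. H3K4me1 came within 1 kb of 7 starts and H3K27ac within 1 kb of 1. Of the midpoints of the genome windows, 2.99% lay within 1 kb of H3K4me3, 14.3% of H3K4me1 and 6.11% of H3K27ac. Midpoints fall anywhere in the genome, and how often other gene starts lie that near a peak was not analysed here. Promoter sequence was at hand for 5 of the 9 genes, PAX6, SOX2, CDX2, TBX5 and GATA1, from RefSeq on build GRCh38.p14, at the outermost start where the table held several. It is shown because CpG-rich promoters are known to attract H3K4 methylation, and these 5 include starts with and without H3K4me3. The 250 bases before each start are printed 5′ to 3′ on the strand of the gene, with each CG pair in capitals.
PAX6 (GRCh38.p14, chr11:31817962-31818211, minus strand): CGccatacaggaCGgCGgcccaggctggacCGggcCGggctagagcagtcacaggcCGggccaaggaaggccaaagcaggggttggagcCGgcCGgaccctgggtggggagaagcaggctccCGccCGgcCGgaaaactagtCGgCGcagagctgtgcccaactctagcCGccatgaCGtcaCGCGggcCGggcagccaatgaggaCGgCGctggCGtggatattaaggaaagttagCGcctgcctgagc
SOX2 (GRCh38.p14, chr3:181711675-181711924, plus strand): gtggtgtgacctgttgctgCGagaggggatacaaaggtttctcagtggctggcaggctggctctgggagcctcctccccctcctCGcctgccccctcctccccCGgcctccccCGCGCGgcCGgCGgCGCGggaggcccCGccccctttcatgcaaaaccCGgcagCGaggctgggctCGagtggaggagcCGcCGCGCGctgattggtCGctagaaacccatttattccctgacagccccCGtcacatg
CDX2 (GRCh38.p14, chr13:27969316-27969565, minus strand): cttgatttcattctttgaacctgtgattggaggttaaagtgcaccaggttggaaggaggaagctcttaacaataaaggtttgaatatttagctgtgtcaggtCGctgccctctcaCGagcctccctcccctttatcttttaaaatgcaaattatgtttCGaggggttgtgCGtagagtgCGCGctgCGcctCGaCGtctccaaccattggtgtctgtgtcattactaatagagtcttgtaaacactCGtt
TBX5 (GRCh38.p14, chr12:114408443-114408692, minus strand): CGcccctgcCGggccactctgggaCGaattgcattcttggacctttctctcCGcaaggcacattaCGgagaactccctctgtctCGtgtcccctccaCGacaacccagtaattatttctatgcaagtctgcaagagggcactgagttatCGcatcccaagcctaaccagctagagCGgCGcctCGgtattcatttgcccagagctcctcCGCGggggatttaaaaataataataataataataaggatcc
GATA1 (GRCh38.p14, chrX:48786340-48786589, plus strand): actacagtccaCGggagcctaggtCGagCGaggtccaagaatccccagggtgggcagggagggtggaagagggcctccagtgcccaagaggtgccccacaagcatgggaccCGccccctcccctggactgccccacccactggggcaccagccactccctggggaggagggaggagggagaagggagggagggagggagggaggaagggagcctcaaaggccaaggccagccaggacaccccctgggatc

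Over 300 bases, from 250 before to 50 after the start, the PAX6 promoter held 24 CG pairs, that of SOX2 20, CDX2 16, TBX5 15 and GATA1 7, against a median of 14 over 35116 RefSeq promoters. The order of CDX2 and TBX5 depended on the window. In the 250 bases printed above, TBX5, which had no H3K4me3 within 20 kb, held 13 CG pairs and CDX2 held 10. H3K4me3 began 91 bp downstream of the GRCh37 start of CDX2. Whether the RefSeq starts of these sequences lie at the same bases as the GRCh37 starts was not checked. PAX6 and SOX2 held the most in either window. GATA1 stood lowest although its G and C content was high, at 67.7%. Its ratio of observed CG pairs to those that its C and G content predicts was 0.20, compared with 0.77 for PAX6, 0.67 for SOX2, 0.84 for CDX2 and 0.79 for TBX5. At least as many CG pairs as in GATA1 were present in 63.2% of all promoters, and at least as many as in PAX6 in 33.9%. On either strand, CCAAT occurred in the PAX6, SOX2 and CDX2 windows and in 34.6% of all promoters. TATAAA, searched apart from it on both strands, occurred in none of the 5 windows and in 11.5% of all promoters. These counts describe 5 windows and were not tested.

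Among the endodermal regulators, CDX2 directs intestinal identity and PDX1 is needed for the pancreas and duodenum. The genes are neighbours on chromosome 13, with starts 49.3 kb apart, so their windows of 20 kb do not overlap. CDX2 had the most peaks of the 9 genes, with 2 H3K27ac, 12 H3K4me1 and 3 H3K4me3 peaks. As many H3K4me1 peaks occurred in 4.45% of genome windows.

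At the CDX2 start, an H3K4me1 peak (chr13:28542923-28543671, signal value 4.77) ran from 166 bp before to 582 bp after the start. The signal value is the authors' strength of a peak in its own list, and it is used here only to rank peaks within a list. An H3K4me3 peak (chr13:28541872-28543414, signal value 5.57) began 91 bp downstream and was 1543 bp wide. Its signal value exceeded that of 36.1% of H3K4me3 peaks, and it overlapped no H3K27ac peak. The start region of CDX2 was therefore methylated without acetylation.

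The strongest CDX2 peaks lay well inside the window on its downstream side. From 6071 to 9763 bp after the start, an H3K27ac peak of 3693 bp (chr13:28533742-28537434) had a signal value of 42.3, higher than 97.7% of that list. An H3K4me3 peak of 2234 bp (chr13:28533821-28536054, signal value 20.8) overlapped it, as did H3K4me1 peaks with signal values of 8.81 and 3.97. The former of these was higher than 97.6% of the H3K4me1 list. A separate cluster stood 15241 to 16689 bp downstream, with H3K4me3 at 8.81, H3K27ac at 4.51 and H3K4me1 at 5.07. Between CDX2 and PDX1, RefSeq lists no other protein-coding gene, and which transcript, if any, these clusters serve was not analysed here.

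PDX1 had H3K4me3 across its start and no H3K27ac within 20 kb. The H3K4me3 peak (chr13:28494024-28495701) ran from 144 bp before to 1533 bp after the start, with a signal value of 3.30, above 23.7% of the list. H3K4me1 stood on both sides of the start, from 2368 to 263 bp before it (signal value 6.06) and from 359 to 1685 bp after it (6.41), leaving a gap of 621 bp that contained the start. These flanks were higher than 88.5% and 90.5% of H3K4me1 peaks. The flanks thus ranked high in their list and the H3K4me3 peak low in its own. The nearest H3K27ac peak was 33.1 kb downstream, and it is the one that lay 15328 bp downstream of the CDX2 start (signal value 4.51).

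Of the neural regulators, PAX6 acts in the eye, brain and pancreatic islets, SOX2 in pluripotent and neural progenitor cells, and OLIG2 in oligodendrocytes and motor neurons. The 3 genes differed widely. PAX6 carried 1 H3K4me3, 2 H3K27ac and 10 H3K4me1 peaks, SOX2 2 H3K4me3 and 3 H3K4me1 peaks, and OLIG2 1 H3K4me1 peak.

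The PAX6 H3K4me3 peak (chr11:31829649-31839511) was 9863 bp wide and ranked 18 by width among 24481. It began 2 bp before the start and extended 9860 bp into the gene, with its summit 4877 bp downstream. Its signal value of 21.9 was above 57.1% of the list, so its width was far more unusual than its strength. As much H3K4me3 in a window, 9.86 kb, occurred in 0.268% of genome windows. RefSeq lists 9 starts for PAX6, whereas the rule used a single GRCh37 position, and which of the 9 it matches was not checked. RefSeq also lists PAX6-AS1, an antisense gene that these data, having no strand, cannot separate from PAX6.

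H3K27ac covered most of the same stretch of PAX6 but not the start used here. Whether it covered other starts of PAX6 was not analysed here. A peak of 6516 bp (chr11:31831289-31837804) ran from 1705 to 8220 bp downstream, with a signal value of 9.30, above 76.0% of the list. A weak peak of 253 bp lay 846 bp downstream, with a signal value of 1.82, above 8.03% of the list. H3K4me1 was broken into pieces over the same bases. The 6 pieces that overlapped the H3K4me3 peak had signal values from 2.71 to 6.18, the highest from 2008 to 4735 bp downstream. Further pieces 161 to 1162 bp before the start had values of 2.93 and 3.25. PAX6 was the only one of the 9 genes with H3K27ac within 5 kb of the start. How often other starts or genome windows have it that near was not analysed here.

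SOX2 had weak marks at its start and a wide surround without acetylation. An H3K4me3 peak of 602 bp (chr3:181429770-181430371) began 58 bp downstream, with a signal value of 2.81, above 18.8% of the list. H3K4me1 stood 749 to 265 bp before the start at 3.98, and 37 to 400 and 476 to 772 bp after it at 2.12 and 2.60, above 63.7%, 2.46% and 18.1% of the list. The nearest H3K27ac peak was 499.96 kb downstream, and it was the only one within 500 kb. SOX2 lies within the long non-coding gene SOX2-OT, and the other H3K4me3 peak, 16359 bp upstream, had a signal value of 2.08.

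OLIG2 had no H3K27ac or H3K4me3 peak within 100 kb. Its only peak within 20 kb was an H3K4me1 peak of 297 bp (chr21:34383393-34383689) 14.5 kb upstream, with a signal value of 2.77, above 25.6% of the list. At 297 bp it was among the narrow peaks of a list whose median width was 696 bp. The nearest H3K4me3 lay 139.0 kb upstream and the nearest H3K27ac 176.9 kb downstream. Farther out, 43 H3K27ac peaks lay within 500 kb of OLIG2, a distance at which genome shares were not computed.

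**Figure D2:**
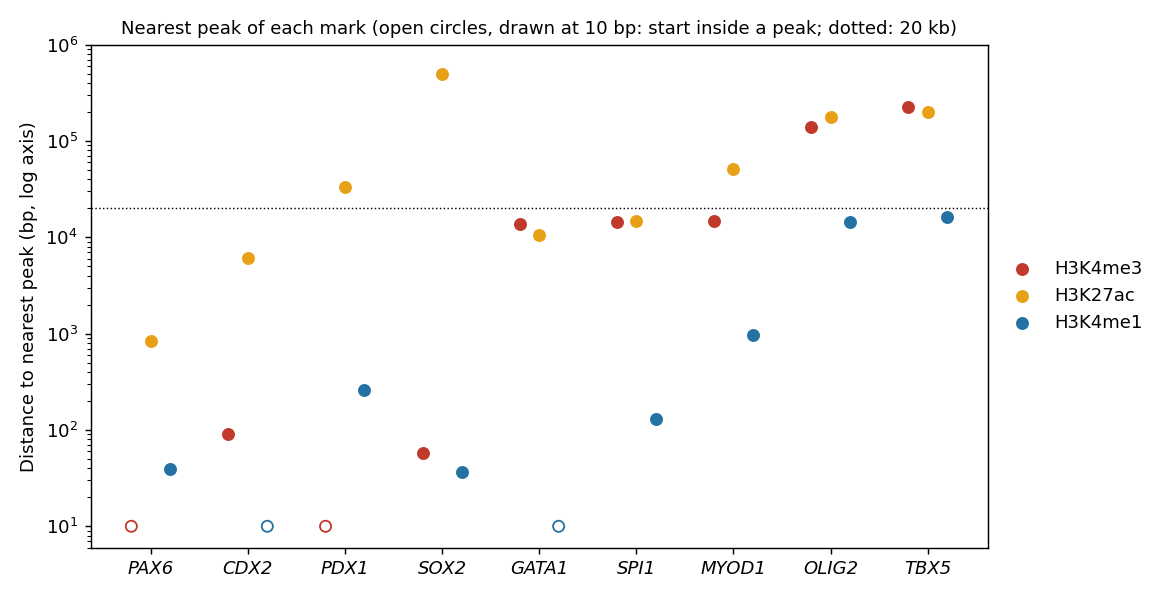
Distance from each gene start to the nearest peak of each mark (y axis, bp, log scale; 1 point per gene and mark; open circles, drawn at 10 bp, stand for a start inside a peak; dotted line, 20 kb). H3K27ac is the farthest mark at 7 of the 9 genes, compared with 44.9% of the midpoints of genome windows, and reaches 499.96 kb at SOX2.

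At the blood regulators, H3K27ac and H3K4me3 lay away from the starts, whereas H3K4me1 also lay at or near them. GATA1 drives erythroid and megakaryocytic development, and SPI1 encodes a factor of myeloid and B cells. At GATA1, 1 H3K4me1 peak (chrX:48644711-48645925) spanned the start from 271 bp before to 943 bp after it, with a signal value of 6.32, above 90.1% of the list. The nearest H3K27ac peak was 10538 bp and the nearest H3K4me3 peak 13770 bp from that start. H3K4me1 continued downstream in small peaks at 4.05 and 2.43 and in a peak of 3995 bp beginning 7477 bp from the start, at 7.62, above 95.2% of the list.

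The strong marks near GATA1 began 13.8 kb downstream. A pair of H3K27ac peaks (chrX:48658742-48660205 and chrX:48660369-48662116) had signal values of 35.0 and 45.1, above 95.8% and 98.1% of the list. H3K4me3 peaks over the same stretches (chrX:48658752-48660188 and chrX:48660331-48662063) had values of 23.7 and 34.8. In the stronger pair the H3K4me3 and H3K27ac summits were the same, 15715 bp from the start. The next protein-coding gene downstream in RefSeq is HDAC6, a broadly used deacetylase gene. Whether these peaks lie at its start was not tested, because an annotation of build GRCh37 was not used here.

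SPI1 had the most H3K4me1 by length of the 9 genes, 15.9 kb in 9 peaks, and as much occurred in 3.38% of genome windows. A peak of 3287 bp (chr11:47396711-47399997) began 130 bp downstream of the start, with a signal value of 6.70, above 92.0% of the list. The strongest (chr11:47414211-47417465) lay 14084 to 17338 bp upstream, with 9.38, above 98.3% of the list. It was the only SPI1 H3K4me1 peak that overlapped the other marks. H3K27ac there had values of 2.05 and 5.90, and H3K4me3 had 2.04, above 7.37% of its list. Wide H3K4me1 at SPI1 was thus accompanied by a shorter length of H3K27ac, 1.53 kb in all. As much H3K27ac occurred in 19.8% of genome windows.

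Neither MYOD1, the regulator of skeletal muscle, nor TBX5, the factor of heart and forelimb, had H3K27ac within 20 kb. MYOD1 had an H3K4me1 peak 964 bp downstream of its start (chr11:17742074-17742743, signal value 4.44, above 71.8% of the list). Its H3K4me3 peak (chr11:17755858-17757135, signal value 5.91) lay 14.7 kb downstream, between H3K4me1 peaks at 4.87 and 5.18 that overlapped it. KCNC1, a potassium channel gene, is the next protein-coding gene downstream in RefSeq, and whether the peak lies at its start was not tested. The nearest H3K27ac was 50.7 kb downstream, with a signal value of 4.68.

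TBX5 resembled OLIG2 in having 1 H3K4me1 peak and no other mark. That peak (chr12:114862436-114863452) was 1017 bp wide and lay 16.2 kb upstream, with a signal value of 3.62, above 55.4% of the list. The nearest H3K27ac was 199.7 kb and the nearest H3K4me3 227.3 kb upstream, and both were weak, at 1.70 and 2.96. TBX5 was the gene with the most distant H3K4me3 and SOX2 the gene with the most distant H3K27ac.

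**Figure D3:**
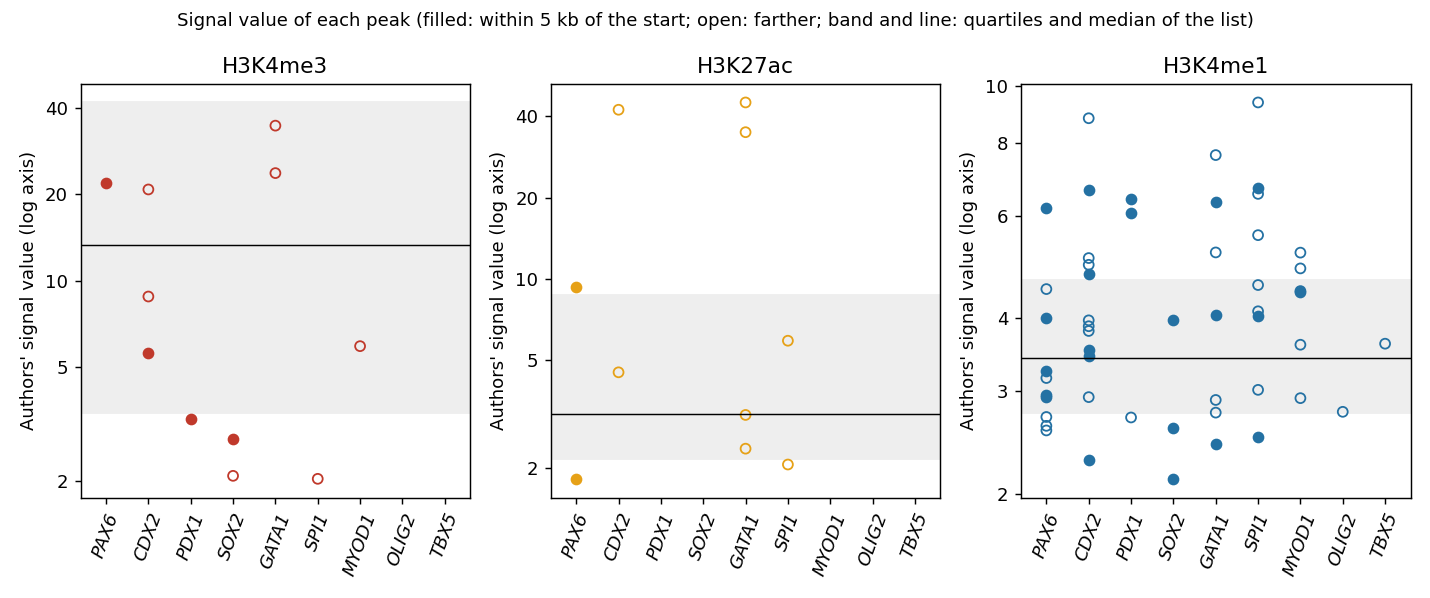
The authors' signal value (y axis, log scale) of each of the 73 peaks by gene, for H3K4me3, H3K27ac and H3K4me1; filled points lie within 5 kb of the start and open points farther away, the grey band spans the quartiles of the whole list and the line is its median. Of the 10 H3K27ac peaks, the 3 strongest (42.3 at CDX2, 35.0 and 45.1 at GATA1) lie more than 5 kb from the start.

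The H3K4me3 peaks within 20 kb of these starts were weaker than is usual for that list. Most of them lay more than 5 kb from the start, and which genes those serve was not analysed here. Their median signal value was 5.91 (range 2.04 to 34.8), and 4 of 11 were above the list median of 13.3. For H3K27ac the median was 5.21 (1.82 to 45.1) with 6 of 10 above the list median of 3.15, and for H3K4me1 it was 3.97 (2.12 to 9.38) with 33 of 52 above 3.42. Within 5 kb of the starts there were 4 H3K4me3, 2 H3K27ac and 22 H3K4me1 peaks, and genome shares at that distance were not computed.

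Of the 11 H3K4me3 peaks, 6 overlapped H3K27ac, compared with 77.5% of all H3K4me3 peaks, and 10 overlapped H3K4me1, compared with 92.7%. Overlap with acetylation depended on strength across the list. In the weakest quartile of signal values, up to 3.45, 44.0% of H3K4me3 peaks had no H3K27ac, and in the next, up to 13.3, 41.2% had none. The H3K4me3 peaks nearest the SOX2 and PDX1 starts belonged to the weakest quartile and the one nearest the CDX2 start to the next. Lack of acetylation was thus frequent at their strength, though most such peaks had some. The SOX2 (602 bp) and PDX1 (1678 bp) peaks were wider than the median of their quartile, 509 bp. The CDX2 peak (1543 bp) was wider than the median of its own, 1013 bp. PAX6 belonged to the third quartile, in which 4.58% had none, and it had some. Of the 52 H3K4me1 peaks, 12 overlapped H3K27ac and 20 overlapped H3K4me3, compared with 33.4% and 18.9% of the whole list. Neither was overlapped by 31 of the 52, compared with 61.6% of the list. Of the 10 H3K27ac peaks, 9 overlapped H3K4me1 and 7 overlapped H3K4me3, compared with 87.4% and 31.7%.

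The same measurements at 7 regulators of the liver, HNF4A, ONECUT1, FOXA1, FOXA2, FOXA3, CEBPA and CEBPB, show how these lists look at factors of the cell's own lineage. All 7 liver starts lay inside both an H3K27ac and an H3K4me3 peak, against 0 and 2 of the 9 lineage regulators. H3K4me1 differed: its peaks contained 1 of the 7 liver starts and 2 of the 9. The median distance to the nearest H3K4me1 peak was 0.887 kb for the liver regulators and 0.13 kb for the lineage regulators. The median length covered by H3K27ac within 20 kb was 13.9 kb (3.82 at ONECUT1 to 26.3 at HNF4A), against 0 kb (0 to 6.77 at PAX6). By H3K4me3 it was 8.65 kb (6.51 at ONECUT1 to 9.90 at FOXA1), against 1.28 kb (0 to 9.86 at PAX6). By H3K4me1 it was 15.5 kb (10.8 at ONECUT1 to 31.3 at HNF4A), against 4.35 kb (0.297 at OLIG2 to 15.9 at SPI1). The groups overlapped for each mark. PAX6 had more H3K4me3 than 6 of the 7 liver regulators. PAX6, CDX2 (4.56 kb) and GATA1 (4.49 kb) had more H3K27ac than ONECUT1. That of CDX2 began 6071 bp and that of GATA1 10538 bp from the start, whereas the ONECUT1 start lay inside a peak. SPI1 had more H3K4me1 than 4 of the liver regulators and CDX2 (12.9 kb) more than 3. Genes are not replicates, so the difference between the lists was not tested.

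**Figure D4:**
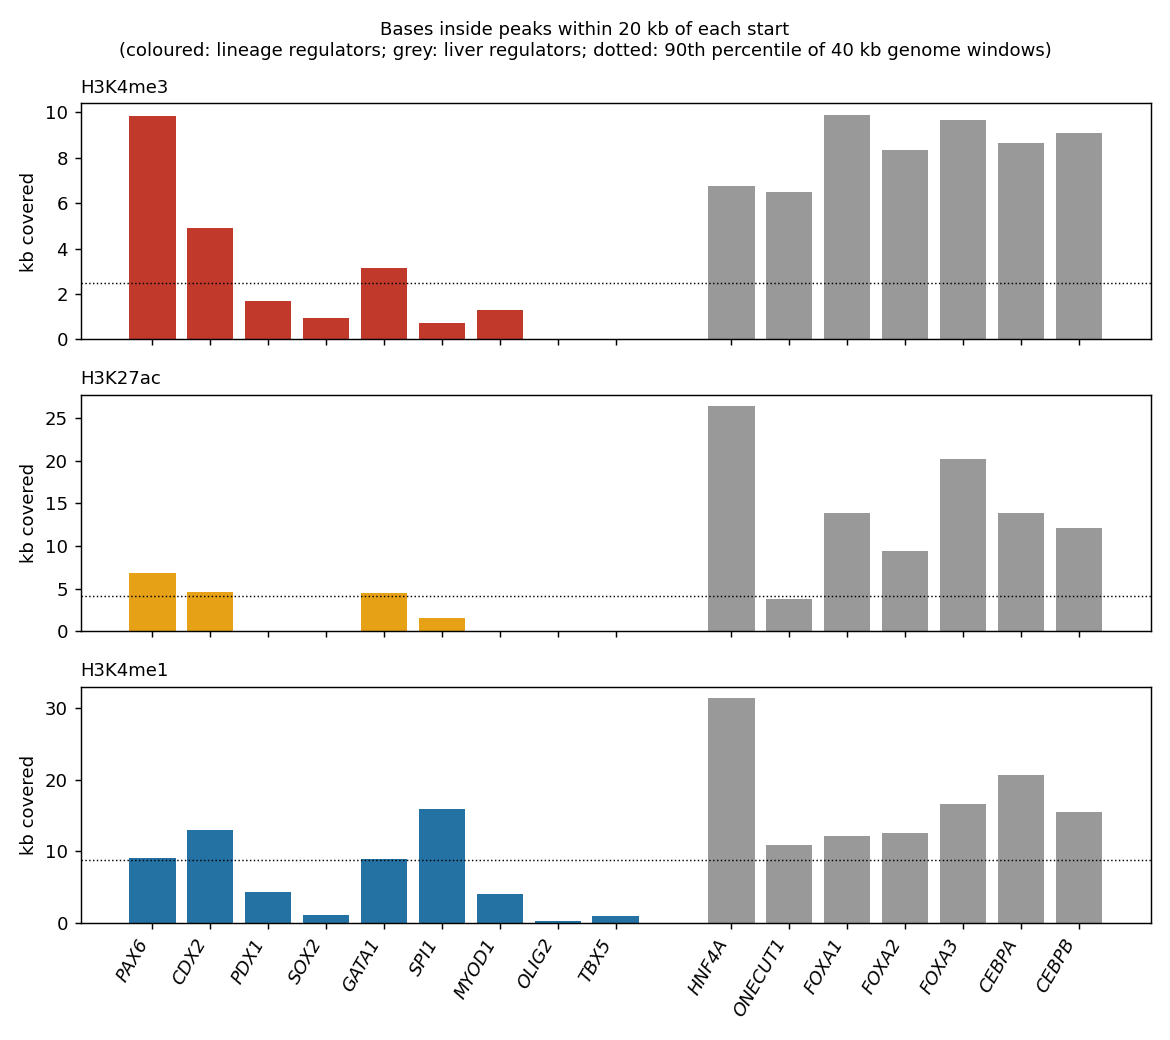
Length inside peaks within 20 kb of each start (y axis, kb, from 0), for the 9 lineage regulators (coloured) and 7 liver regulators (grey), 1 panel per mark; the dotted line is the 90th percentile of 40 kb genome windows. For H3K27ac, 6 of the 7 liver regulators exceed the 6.77 kb of PAX6, and 5 lineage regulators are at 0.

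As a check of the labelled cell type, 4 genes of liver products were measured in the same way. The starts of ALB, AFP and APOA1, which encode albumin, alpha-fetoprotein and an apolipoprotein, lay inside H3K27ac and H3K4me3 peaks. That of FGB, a fibrinogen chain, lay 23 bp from H3K4me3 and 1614 bp from H3K27ac.

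Counts of H3K27ac peaks in the wider surround differed widely among the 9 genes. Within 500 kb of the start, H3K27ac peaks numbered 1 at SOX2, 12 at PAX6, 19 at MYOD1, 24 at CDX2, 26 at PDX1, 36 at TBX5, 43 at OLIG2, 73 at GATA1 and 84 at SPI1. SOX2 thus had the fewest such peaks of the 9 and the blood genes the most. TBX5 and OLIG2 had more of them than PAX6 did, but none within 100 kb. The starts of CDX2 and PDX1 lie 49.3 kb apart, so their counts largely share the same peaks. Genome shares within 500 kb were not computed, and a count of peaks does not measure the amount of acetylation. At the 20 kb limit itself, the farthest peak counted was an H3K4me1 peak 19.6 kb from the MYOD1 start (signal value 2.92), and the nearest left out was an H3K4me1 peak 20.3 kb from it (2.90).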

How the data were processed

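HepG2 libraries for 3 histone marks and a control were sequenced, and the authors deposited 1 peak list per mark, which going by its name pools replicates. The submitters' processing notes name MACS2 and hg19 (GRCh37); the version, the threshold and the use of controls are not given in the sources used here. Each deposited peak has a signal value, a −log10 q-value and a summit, which were used. What the authors' signal value is relative to is not given in the sources used here, and the deposited −log10 q-value served only as a filter. The lists hold 66586 H3K27ac, 182755 H3K4me1 and 24481 H3K4me3 peaks. Depth per library is unknown, which leaves the precision of a value unknown.

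Distance was taken from the gene start to the nearest base of a peak, and overlap needed 1 bp. Genome windows of 40 kb ran from base 1 to the last peak of chromosomes 1 to 22 and X. No test was made, since there were no replicate values. The members and gene lists were chosen with earlier results of these data known. Starts of the liver genes came from general knowledge, and 2 regulators of the planned liver list are not reported here. All members are named, with the peak at or nearest the start and the strongest peak within 20 kb; further peaks were named after their values were seen. Promoters and neighbouring genes came from RefSeq (GRCh38.p14), matched by symbol; 5 of 9 promoters matched. Alternatives were windows of 5 and 50 kb, summits in place of peaks, the upper 50% of each list by signal value, a minimum −log10 q-value of 5, joining of peaks within 1000 bp, and 200 bp to either side of summits. The overlap and distance code was tested on simulated data. Python 3.11.15, numpy 2.4.6, pandas 2.3.3 and matplotlib 3.10.9 were used.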

Additional observations from a re-analysis of the deposited data

How the results depend on the processing

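Over 9 counts, 54 alternative values were computed, of which 37 stayed within 1.5 times the count reported and 17 moved more. Within 5 kb of the starts, H3K27ac was found at 1 gene (2 peaks) and H3K4me3 at 4 genes (4 peaks), and H3K4me1 had 22 peaks. Within 50 kb there were 25 H3K27ac, 113 H3K4me1 and 22 H3K4me3 peaks, where peaks near both CDX2 and PDX1 count for each. The stronger 50% of each list left 6 H3K27ac, 33 H3K4me1 and 4 H3K4me3 peaks, H3K4me3 at 3 genes, and 1 start inside an H3K4me3 peak. H3K4me1 was then found at 8 genes, as it was among peaks whose −log10 q-value reached 5, which left H3K4me3 at 6. Joining peaks within 1000 bp gave 6 H3K27ac and 30 H3K4me1 regions and put 5 starts inside H3K4me1. With 200 bp to either side of summits, 1 start lay inside H3K4me3. Fewer or joined regions follow from how these alternatives are built. Genome shares were not computed under the alternatives, so these counts have no background beside them. The count of starts inside H3K27ac was 0 under each alternative that gave one, but none of these could have changed it. The q-value and signal filters only remove peaks. The nearest H3K27ac base to any start was 846 bp away, beyond the reach of 200 bp around a summit. Joining needs peaks on both sides of a start, and no start had H3K27ac on both sides within 20 kb. No paired analysis was possible because the replicates were pooled in each list, and for the same reason no replicate could be left out.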
